A study of Mus musculus with 4 samples.

Results

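The outer dynein arm docking complex genes *Ccdc114*, *Ccdc151*, *Armc4*, *Ttc25* and *Ccdc63* are 5 of the 21938 protein-coding genes of the mouse annotation against which RFX2 ChIP-Seq peaks were placed. They were chosen by name, for the proteins they encode, with earlier results of these data known. A promoter was taken as the interval from 1000 bp upstream to 500 bp downstream of any annotated transcription start site (TSS) of a gene. The series holds ChIP-Seq of the transcription factor RFX2 in 2 wild type mice, labelled replicates 1 and 2, with 1 input library of unprecipitated chromatin for each. All 4 libraries came from decapsulated testis of animals of the mixed strain background C57BL/6|129/Sv|FVB/N, labelled as postnatal day 29-30, whereas the study's text describes dissociated germ cells of younger animals for this experiment. ChIP-Seq of *Rfx2* mutant testis was not analysed here, and input was the only control. Tissue and cell type could not be checked against markers, since the files list binding and no expression.

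Outer dynein arms are the motor complexes on the outer side of the axonemal doublet microtubules, and they drive much of the beating of motile cilia and sperm flagella. The docking complex is the small assembly that anchors these arms to the doublets. CCDC114 and CCDC151 are coiled-coil proteins of the complex, ARMC4 is an armadillo repeat protein and TTC25 a tetratricopeptide repeat protein, and mutations in each of these genes cause primary ciliary dyskinesia in humans. CCDC63 is a paralog of CCDC114 found mainly in testis and needed for sperm flagella. RFX factors are regulators of ciliary genes and bind the X-box, an inverted repeat searched here as the 7-letter word GTTGCCA followed directly by its reverse complement TGGCAAC, a run of 14 bases.

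RFX2 peaks lay at the promoters of *Ccdc151*, *Armc4* and *Ttc25* in all 3 deposited lists, those of replicates 1 and 2 and a shorter list that is called the combined list here. No peak of any list lay in a promoter of *Ccdc114* or *Ccdc63*. This gives 3 of 5 members in each list. Among all protein-coding genes a promoter peak was present for 14.0% in replicate 1, 11.3% in replicate 2, 9.05% in both replicates and 5.26% in the combined list. With 5 genes, and lists that may rest on the same reads, no test was made of this difference.

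The sequences under the peaks are shown first, because the bound members differed from the control site of the study in how closely they matched the X-box. All are read 5′ to 3′ on the + strand of GRCm38, with the matched letters in capitals. At *Ccdc151* the best match, chr9:22002655-22002668, covered the peak summit and had 3 mismatches (G4C, T8A and C11A, counted from the 5′ end of the X-box, X-box base first). A single 7-letter word with 1 mismatch (C6T) was centred at -33 bp (to the left) from the summit at *Ccdc151*, and the same word was centred at -9 bp at *Ttc25*. *Dync2li1*, a known target of RFX factors that the study used as control, had an X-box with 0 mismatches. The control was the less common case. Among the 1003 promoter peaks of the combined list, the best match within 100 bp of the summit had 0 mismatches at 16 (1.60%). It had 3 mismatches at 251 of these peaks, 4 at 192 and 5 at 136. The 30 bases around each site are as follows, from chr9:22002647-22002676, chr9:22002614-22002643, chr11:100545693-100545722 and chr17:84626445-84626474 in this order.
Ccdc151 X-box: ccgcccacGTTCCCAAGGAAACcgcccgcg
Ccdc151 single word: agcatctcccgGTTGCTAagtaacttcctc
Ttc25 single word: tatctctctagGTTGCTAagagaccgggct
Dync2li1 X-box: gtgacgtcGTTGCCATGGCAACcgaggagc

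*Ccdc151* (ENSMUSG00000039632, chr9:21989871-22002634, - strand) had the strongest peak among the members. In replicate 1 the peak spanned 1363 bp (chr9:22001984-22003346) with a score of 167.9, the 215th highest of 39825 peaks. In replicate 2 it spanned 957 bp (chr9:22002157-22003113) with a score of 108.0, tied at ranks 88 to 89 of 21274. These scores are on a -log10 scale, so that a higher score is a more significant peak, and the peak lay within the top 0.540% and 0.414% of the 2 lists. In the combined list, *Ccdc151* ranked 269th of 2726, with a -log10 p of 195.7, a -log10 q of 190.8 and a fold enrichment over local background of 13.2. The summit, chr9:22002661, lay at -27 bp from the main TSS and at -124 bp from the other annotated TSS (negative values are upstream). It was outside every transcript of the gene in the annotation used. RefSeq places 4 start sites of *Ccdc151*, from 22002634 to 22002972, and the summit lay downstream of the most upstream of these.

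The *Ccdc151* peak also met the promoter of *Prkcsh*, which encodes the beta subunit of glucosidase II and is transcribed in the opposite direction. The summit was at -145 bp from the nearest of 4 *Prkcsh* start sites and thus closer to *Ccdc151*. A peak that meets promoters of both genes cannot be assigned to 1 of them from its position. Apart from it, the nearest combined peak was 408.1 kb from the *Ccdc151* start sites.

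*Armc4* (ENSMUSG00000061802, chr18:7088209-7297936, - strand), the longest of these genes at 209.7 kb, was bound at its most upstream start sites. The score was 69.95 in replicate 1 (1231 bp, ranks 1174 to 1177) and 44.7 in replicate 2 (742 bp, ranks 606 to 612), in the top 2.95% and 2.85% of the lists. The combined peak had a -log10 p of 96.7, a rank of 1095 and a fold of 14.7. Its summit, at 7297942, lay at -6 bp from the first TSS of the annotation used and at -41 bp from the next. RefSeq places a further *Armc4* start site upstream, at 7298273, within the combined peak, and the summit lay downstream of it. None of the 3 internal start sites of *Armc4* had a promoter peak in any list. Replicate 2 held 1 further peak inside the gene, with a score of 5.06 and 6.11 kb from the nearest internal start site, and replicate 1 held none.

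*Ttc25* (ENSMUSG00000006784, chr11:100545607-100572568, + strand) had the weakest of the promoter peaks. The replicate 1 peak spanned 925 bp with a score of 50.3 (ranks 1769 to 1771), and the main replicate 2 peak spanned 591 bp with a score of 32.8 (ranks 943 to 949), in the top 4.44% and 4.43%. Replicate 2 listed a second peak in the promoter, of 156 bp and a score of 4.14, which fell within the span of the combined peak (chr11:100545153-100546253). The combined peak had a -log10 p of 70.4, a rank of 1630 and a fold of 9.86, in the weaker part of that list (top 59.8%). The summit lay 6 bp downstream of the nearest TSS and 22 bp and 109 bp downstream of the start sites before it, in exon and UTR sequence of 4 of the 5 transcripts. The most downstream start site, at 100549547, had no peak.

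**Figure D1:**
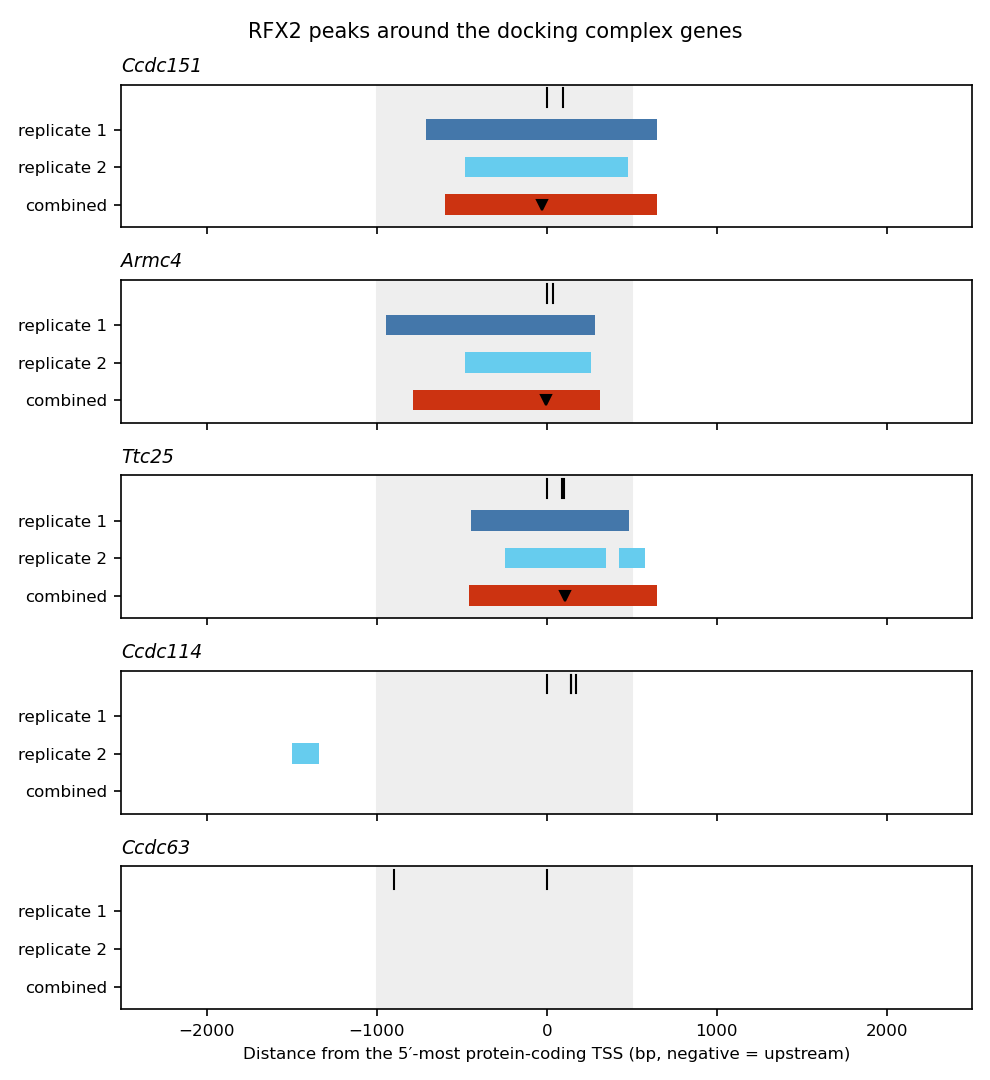
Peaks of the 3 lists around the 5 genes, with distance from the most upstream protein-coding TSS in bp on the horizontal axis, 1 row per list, and negative values upstream. Bars are peak spans, triangles combined summits, short vertical lines annotated start sites and grey the promoter of that TSS. Bars cover the start sites of Ccdc151, Armc4 and Ttc25, the promoters of Ccdc114 and Ccdc63 hold none, and the only bar near Ccdc114 is the replicate 2 peak that ends 1340 bp upstream.

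The order *Ccdc151*, *Armc4*, *Ttc25* was the same in both replicates and in the combined list by -log10 p. By fold the order changed, with *Armc4* (14.7) above *Ccdc151* (13.2) and *Ttc25* (9.86), and ranks by fold of 1845, 2120 and 2519 of 2726. The lists carry no error for a peak, so the spread between the 2 replicates was the only measure of it. Both replicate scores of *Ccdc151* (108.0 and 167.9) exceeded those of the other members. Within each replicate *Armc4* scored above *Ttc25*, with 69.95 against 50.3 in replicate 1 and 44.7 against 32.8 in replicate 2. Their ranges over the 2 replicates overlapped. Scores were mostly higher in replicate 1, with ratios given below, so these ranges include a general difference between the lists.

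Each bound member scored higher in replicate 1. The ratio of the scores, replicate 1 over replicate 2, was 1.56 for *Ccdc151*, 1.56 for *Armc4* and 1.53 for *Ttc25*. Over the 1138 genes with a promoter peak in all 3 lists this ratio had a median of 2.05 and quartiles of 1.53 and 2.67, so that the members sat close to the lower quartile. *Dync2li1* had a ratio of 2.20. The main replicate 2 peaks lay wholly within the replicate 1 peaks and covered 70.2%, 60.3% and 63.9% of them, with peak centres 30, 220 and 32 bp apart for *Ccdc151*, *Armc4* and *Ttc25*.

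**Figure D2:**
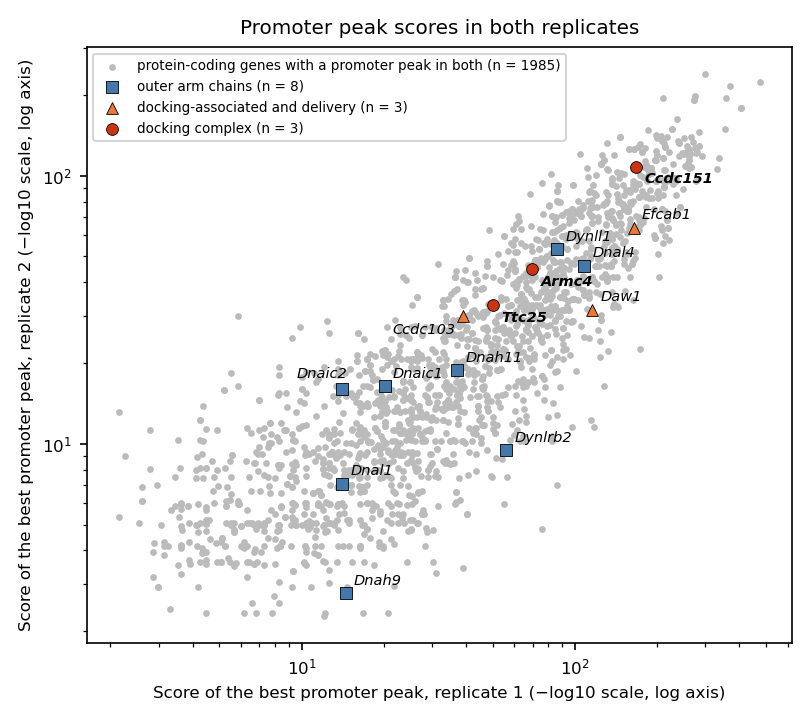
Score of the best promoter peak in replicate 1 (horizontal) and replicate 2 (vertical), both -log10 scores on log axes, for the 1985 protein-coding genes with a promoter peak in both lists. Red circles are the 3 bound docking complex genes, blue squares 8 outer arm chain genes and orange triangles 3 docking-associated genes. Ccdc151 sits near the upper end of the cloud at 167.9 and 108.0, above Armc4 and Ttc25.

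Compared with the 1003 combined peaks at promoters, the 3 members were wide and of modest fold. Their widths of 1246, 1098 and 1101 bp exceeded the upper quartile of 1081.5 bp. All 3 folds were below the median of 15.0, whereas -log10 p lay above the median of 103 for *Ccdc151* and below it for *Armc4* and *Ttc25*. *Dync2li1* had a -log10 p of 243.7, a fold of 34.0 and a width of 674 bp. The GC content of the 100 bp on either side of the summit was 60.7% at *Ccdc151*, 63.2% at *Armc4* and 56.7% at *Ttc25*, against a median of 59.2%, and these windows held 14, 14 and 10 CpG dinucleotides against a median of 12.

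**Figure D3:**
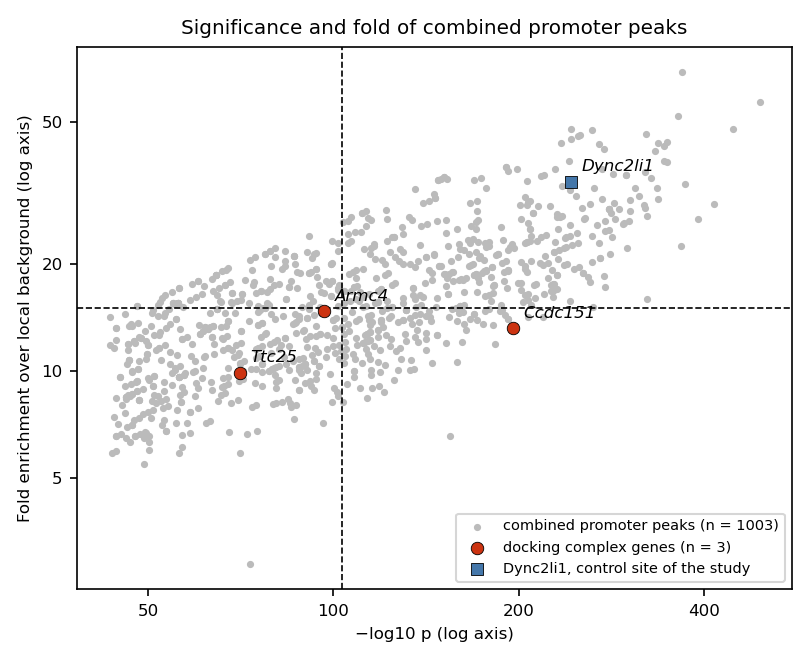
Fold enrichment over local background (vertical, log axis) against -log10 p (horizontal, log axis) for the 1003 combined peaks at promoters. Dashed lines are the medians of 15.0 and 103. Ccdc151, Armc4 and Ttc25 lie below the median fold, and only Ccdc151 lies to the right of the median -log10 p, while Dync2li1 is high on both axes.

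Within 100 bp of the summit, an X-box with at most 3 mismatches on either strand was found at *Ccdc151* alone among the bound members. It was centred 0.5 bp from the summit. The best match had 4 mismatches at *Armc4*, 10.5 bp from the summit, and 5 at *Ttc25*, at -5.5 bp. Of the 1003 combined promoter peaks, 58.9% held such an X-box, and 0.798% of windows of the same length 1000 bp to the right did. At most 4 mismatches, the level of *Armc4*, were reached by 78.1% of these peaks and 4.89% of the flanking windows. Of all 21853 promoters taken once per gene, 8.96% held an X-box with at most 3 mismatches. Whole promoters are longer than the windows around summits, so this share is not directly comparable with the others.

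A single 7-letter word, GTTGCCA with at most 1 mismatch on either strand, was present within 40 bp of the summit at all 3 bound members, as it was at 85.5% of combined promoter peaks and 15.1% of flanking windows. *Ccdc151* and *Armc4* each had 2 such words, and *Ttc25* had 1. The exact word GTTGCTA, shown above for *Ccdc151* and *Ttc25*, occurred within 100 bp of the summit at 24.3% of the combined promoter peaks and in 1.79% of flanking windows. This word was searched after the sites of the members had been seen, and the letters at *Armc4* are not reported here. Words of 6 letters, GTTGCC and GGCAAC, with 1 base between them matched with at most 3 mismatches at *Ccdc151* (3) and *Armc4* (2) and not at *Ttc25* (4). The background for this spaced form was 30.8% of combined promoter peaks and 4.99% of flanking windows. A match is a description of letters, and absence of a match says only that the letters are not in the window.

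**Figure D4:**
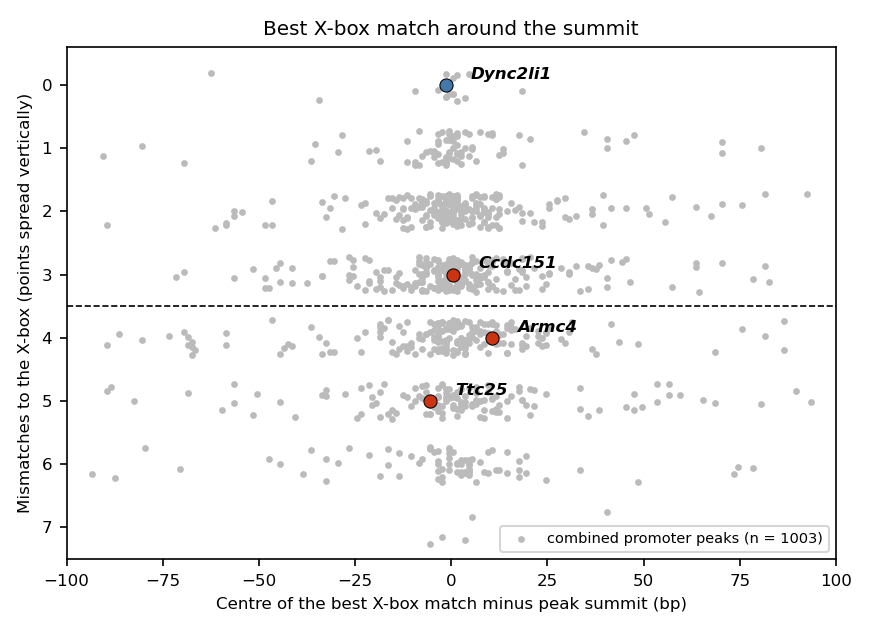
Mismatches of the best X-box match within 100 bp of the summit (vertical, fewest at the top) against the distance of its centre from the summit in bp (horizontal), for 1003 combined promoter peaks in grey. Grey points are spread vertically within each whole number. Ccdc151 has 3 mismatches at 0.5 bp, Armc4 4 at 10.5 bp and Ttc25 5 at -5.5 bp, while Dync2li1 has 0, and the dashed line marks the limit of 3.

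*Ccdc114* (ENSMUSG00000040189, chr7:45924072-45948963, + strand) had no peak in any list within its span or promoters. The nearest peak was in replicate 2 only, chr7:45922577-45922732, which had a score of 4.47 (ranks 13981 to 13994 of 21274) and ended 1340 bp upstream of the first TSS. Its centre was nearer to the start site of *Emp3*, a membrane protein gene, at -1250 bp from it. In replicate 1 the nearest peak was 44.8 kb away, at the *Abcc6* promoter, and in the combined list 108.7 kb away, at *Cyth2*. RefSeq places a further *Ccdc114* start site upstream, at 45923159, and by RefSeq start sites the replicate 2 peak fell in a *Ccdc114* promoter. The best X-box in the 3177 bp of *Ccdc114* promoters had 4 mismatches.

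*Ccdc63* (ENSMUSG00000043036, chr5:122108040-122140823, - strand), the paralog of *Ccdc114*, also had no peak within its span or promoters. A weak peak of both replicates lay upstream of it. The replicate 1 peak, chr5:122148450-122149422, had a score of 12.6 (ranks 6593 to 6916) and began 7.63 kb upstream of the most upstream start site, and the replicate 2 peak, chr5:122148805-122149156, had a score of 9.08 (ranks 4127 to 4304). The replicate 2 peak was contained in the replicate 1 peak, was not in the combined list, and met no annotated transcript. *Ccdc63* had the nearest start site of any gene. The nearest combined peak was 122.8 kb away, at *Tctn1*, a transition zone gene, with a rank of 181 and a fold of 21.0.

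Both the upstream peak of *Ccdc63* and a promoter of *Ccdc63* without a peak held an X-box with 3 mismatches, so the pair is shown for comparison with the bound site of *Ccdc151*. The promoter site, chr5:122137674-122137687, lay 381.5 bp downstream of the TSS at 122138062, in an exon of another transcript, and differed by G10A, C11A and C14A. The site in the upstream peak, chr5:122148885-122148898, differed by T3C, G4A and G9A. The nearest peak to the promoter site was 10763 bp away, in replicate 1. The printed 30 bases are chr5:122137666-122137695 and chr5:122148877-122148906, + strand.
Ccdc63 promoter, no peak: agaggccaGTTGCCATGAAAAAtggccata
Ccdc63 upstream peak: acagcgtaGTCACCATAGCAACcataactt

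The proteins that work with the docking complex were counted from lists chosen for their function, with earlier results of these data known. Of 13 genes for outer arm chains, that is heavy, intermediate and light chains, 9 had a promoter peak in replicate 1, 9 in replicate 2, 8 in both and 4 in the combined list, where the shares over all protein-coding genes were 14.0%, 11.3%, 9.05% and 5.26%. The combined 4 were *Dnal4* (rank 589, fold 22.6), *Dynll1* (rank 608, fold 12.4), *Dynlrb2* (rank 2080, fold 10.3) and *Dnah11* (rank 2605, fold 9.03). With the most upstream protein-coding TSS alone, *Dnal4* had no combined promoter peak. *Dnah11* was the only heavy chain gene in the combined list, and its peak had the lowest rank of the 4. The light chains DYNLL1 and DYNLRB2 also serve cytoplasmic dynein. The intermediate chain genes *Dnaic1* and *Dnaic2*, the heavy chain gene *Dnah9* and the light chain gene *Dnal1* had peaks in both replicates and none in the combined list. *Fam219a* had the same scores as *Dnaic1* in replicates 1 and 2, so this peak may be shared and was not assigned to *Dnaic1* alone. Weak peaks were counted too, here and in the shares over all genes. In replicate 2 *Dnah9* had a score of 2.77 (rank 20828 of 21274) and *Dnah8* 3.60 (rank 19166). In replicate 1 *Nme8* had a score of 4.47, the median of that list. *Dnah5*, *Dnah17* and *Dynll2* had no promoter peak in any list. None of the 4 combined peaks held an X-box with at most 3 mismatches within 100 bp of the summit, against 58.9% of all combined promoter peaks. The best match had 4 mismatches at *Dnah11* and *Dynll1* and 5 at *Dnal4* and *Dynlrb2*.

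The 3 genes listed as docking-associated or as involved in arm assembly and delivery all had promoter peaks in every list, against 14.0%, 11.3% and 5.26% of all protein-coding genes in replicate 1, replicate 2 and the combined list. *Efcab1*, which encodes the calcium-binding protein calaxin of the docking complex, had a combined rank of 118, a fold of 44.9 and a summit at -17 bp from the TSS, and its best X-box had 1 mismatch. *Daw1*, needed for dynein arm delivery, had a rank of 692, a fold of 23.8 and 2 mismatches. *Ccdc103*, an arm attachment factor, had a rank of 2086, a fold of 9.60 and 4 mismatches. *Eftud2* had the same scores as *Ccdc103* in replicates 1 and 2 (38.9 and 30.1), so this peak may be shared and was not assigned to *Ccdc103* alone. *Efcab1* ranked above all 3 bound members in the combined list, and below *Ccdc151* in both replicates with scores of 164.0 and 64.0.

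The genes whose promoter peaks were most like those of the members were found by the sum over the 3 lists of the absolute difference in log10 rank, leaving out genes that share a member's own combined peak. *Prkcsh*, which shares the *Ccdc151* peak and so its ranks, was therefore no candidate, and 1136 genes remained for *Ccdc151* and 1137 each for *Armc4* and *Ttc25*. For *Ccdc151* these were *Cep162*, a gene of a centriolar protein (sum 0.246, ranks 234, 97 and 183 in replicate 1, replicate 2 and the combined list), and *Fam214a* (0.281). For *Armc4* they were *Fto* and the transition zone gene *Rpgrip1l*, which had the same ranks of 1213, 595 and 1135 and a sum of 0.0377. *Fto* and *Rpgrip1l* shared 1 combined peak, which was not assigned to either gene here. For *Ttc25* they were the mitochondrial ribosome gene *Mrps9* (0.0544) and *Dzip1* (0.0709), a gene of cilium formation. Likeness in rank is a description of 3 lists and carries no statement on function.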

How the data were processed

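RFX2 ChIP and input DNA of 2 wild type mice were sequenced by the authors. The submitters' processing notes name CASAVA 1.8.2, Bowtie 0.12.7, MACS2 2.0.10.20130520 and GRCm38. Replicate 2 was sequenced again, and reads mapping to human DNA were removed from that contaminated run. Such removal can lower signal in conserved sequence, and whether it did so here was not tested. The deposited lists of replicates 1 and 2 give 1 score per peak on a -log10 scale, and whether it derives from p or q is not stated. The third deposited list, attached by the archive to replicate 2 but with peak names that begin with "all", gives a score (10 times -log10 p, whole part), a summit position, -log10 values of p and q, and fold enrichment, a ratio to the background nearby. It was called combined here. The methods describe a selection of peaks reproducible between the replicates by irreproducible discovery rate (IDR), and whether this list is its outcome is not stated. It may share reads with the other lists. The files hold no reads, so depth is unknown and no interval could be given. Input entered only through the authors' peak calling.

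Promoters were placed on GENCODE M21 (GRCm38.p6), and a peak was counted with an overlap of at least 1 bp. Ranks run from the highest score, ties sharing the first rank. Overlaps were checked with bedtools 2.31.1, and scripts, run with Python 3.11.15 and pandas 2.3.3, were tested on simulated peaks. X-boxes were searched within 100 bp of the summit. Printed sequences were read from the RefSeq genome of this build, which 66 of 66 RefSeq promoter sequences matched. Named genes were the 5 members, genes sharing their peaks, nearest genes of peaks, up to 6 genes of the pathway lists with the highest combined rank, the 2 genes most like each bound member, and *Dync2li1*. The other genes of the pathway lists are named where they are counted by list. Values of *Dnah11*, *Dnah9*, *Dnah8* and *Nme8* are given beyond the limit of 6, chosen after they were seen. *Eftud2* is named because it had the replicate scores of *Ccdc103*, and *Fam219a* because it had those of *Dnaic1*. Members and lists were chosen with earlier results of these data known. No p-value was computed. Sequence is not reported here for *Armc4*. Alternatives were other promoter windows, start sites, thresholds, ranks and motif limits.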

Additional observations from a re-analysis of the deposited data

How the results depend on the processing

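The count of 3 members with a promoter peak in both replicates was the same under every alternative run, a promoter of 500 bp upstream to 50 bp downstream, RefSeq start sites and the top 50% of each list included, and was 3 to 3 when either replicate was left out. In the combined list the top 50% kept 2 members and lost *Ttc25*. It kept 4 of the 7 outer arm and docking-associated genes, losing *Dynlrb2*, *Ccdc103* and *Dnah11*. Over all protein-coding genes, the number with a combined promoter peak also fell, from 1153 to 751, so such a loss was general. With the most upstream protein-coding TSS alone, 6 of the 7 genes kept the peak and *Dnal4* lost it. Over all protein-coding genes the number was then 980 against 1153. The number of members with an X-box changed with the limit, from 1 to 0 at 2 mismatches and to 2 at 4 mismatches, and was 2 for the words of 6 letters with 1 base between, a form added after the data had been seen. Of 24 alternatives of these counts, 20 gave the main count within 1.5 times. Positions depended on the landmark: peak centres lay at +24, -235 and -7 bp from the nearest TSS for *Ccdc151*, *Armc4* and *Ttc25*. No paired analysis was possible because no result comes from a test. Depth is unknown, so absence of a promoter peak at *Ccdc114* and *Ccdc63* means that none was listed for the start sites used. By RefSeq start sites *Ccdc114* had 1 promoter peak, in replicate 2 only.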
